A study of Caenorhabditis elegans with 2 samples.

Results

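The 8 genes described here, ttn-1, unc-22, unc-89, unc-52, ketn-1, dig-1, dys-1 and anc-1, encode giant proteins of muscle, extracellular matrix and the cell scaffold in the nematode Caenorhabditis elegans. They were listed by name, with earlier results of these data known, and are 8 of 19973 nuclear protein-coding genes in the Ensembl annotation of build WBcel235, which is the same sequence as ce11. The data are lists of ChIP-seq peaks for NFYA-1, a subunit of the transcription factor NF-Y, from 2 biological replicates of 1 group with no second condition. All worms were young adult hermaphrodites of strain OP404, whose genotype is unc-119(tm4063) III; wgIs404, and whole animals were used. NFYA-1 carried a GFP and FLAG tag at its C terminus, DNA was sheared by sonication and an antibody to GFP was used for the precipitation. The tagged protein came from a transgene in a single strain, and a list from whole animals cannot say in which cells a peak arose. Every peak whose summit fell in a listed gene was taken from the list of each replicate, from the list of both replicates pooled and from the authors' final list.

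The replicate and pooled lists hold 30000 peaks each, including weak ones that the authors kept as background, while the final list holds 97 peaks, 71 of them on nuclear chromosomes. Because the list length was the same in every case, a number of peaks is a share of a fixed total, not an amount of binding. Read depth is not given in the files used here. Each peak carries the authors' own signal value, which was used only to rank peaks within a list, with rank 1 the strongest. Only the order of the values can be compared between lists, since their ranges differ.

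The members had 11133 to 55407 coding bases against a median of 993 over all genes, and ttn-1, dig-1 and anc-1 ranked 1, 2 and 4 in coding length. Of the thick-filament and titin-like genes, ttn-1 lies on the minus strand of chromosome V at 6120909 to 6202632, unc-22 on the minus strand of IV at 11972697 to 12011007, and unc-89 on the plus strand of I at 4035702 to 4090885. The thin-filament gene ketn-1 lies on the minus strand of V at 2781939 to 2807860. Among the matrix genes, unc-52 is on the minus strand of II at 14647321 to 14684456 and dig-1 on the plus strand of III at 6746308 to 6794764. The dystrophin gene dys-1 is on the minus strand of I at 11526918 to 11557851, and the nuclear anchor gene anc-1 on the plus strand of I at 4318033 to 4359092. Together they have 205972 coding bases.

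NF-Y is a conserved factor of 3 kinds of subunit, NF-YA, NF-YB and NF-YC, and binds the box CCAAT, most often in promoters a short way upstream of the transcript start. NF-YA makes the contact with the box. In muscle of C. elegans, TTN-1 and the twitchin UNC-22 are giant proteins with immunoglobulin and fibronectin repeats and a kinase domain, and UNC-89 is the obscurin of the M-line. KETN-1, the kettin, binds thin filaments. UNC-52 is perlecan, the basement membrane proteoglycan to which the muscle attachments are anchored. DIG-1 is a very large secreted protein that holds cells and axons in place, DYS-1 is dystrophin, which links the cytoskeleton to the membrane, and ANC-1 is a giant KASH protein that anchors nuclei to the actin cytoskeleton. Coding exons of such genes add up to long stretches of DNA, which is why their peaks are described here per coding base. Some of these exons lie near annotated transcript starts inside the gene, so a coding-exon summit can also be near a start.

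The sequences under the strongest pooled coding-exon summit of 5 of the 8 genes show whether the letters of the NF-Y box stand there. Each is a summit with 50 bases on either side, 5′ to 3′ on the strand of the gene, read from the RefSeq genome of build WBcel235, with CCAAT or its reverse complement ATTGG in capitals.
ttn-1, chrV:6199732-6199832, minus strand: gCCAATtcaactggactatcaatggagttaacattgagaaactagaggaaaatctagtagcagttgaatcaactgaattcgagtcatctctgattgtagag
ketn-1, chrV:2791325-2791425, minus strand: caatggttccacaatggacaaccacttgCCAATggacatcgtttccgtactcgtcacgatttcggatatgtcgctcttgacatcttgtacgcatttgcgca
dig-1, chrIII:6753068-6753168, plus strand: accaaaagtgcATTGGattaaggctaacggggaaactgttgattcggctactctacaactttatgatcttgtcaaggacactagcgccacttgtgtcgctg
unc-52, chrII:14665795-14665895, minus strand: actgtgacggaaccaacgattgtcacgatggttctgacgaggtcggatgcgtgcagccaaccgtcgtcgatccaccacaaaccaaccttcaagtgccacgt
unc-22, chrIV:11985383-11985483, minus strand: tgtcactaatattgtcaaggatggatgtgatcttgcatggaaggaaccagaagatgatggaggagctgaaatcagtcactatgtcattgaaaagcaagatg
The windows of ttn-1, ketn-1 and dig-1 hold the 5 letters, at 45, 18 and 35 bp from the summit, and those of unc-52 and unc-22 do not. The windows of the other 3 genes are not printed. Their strongest peaks ranked 66 (dys-1), 182 (unc-89) and 897 (anc-1) in the pooled list, and of these the anc-1 window holds the letters, so that 4 of the 8 do. GC content was 55.4% in the unc-52 window and 37.6% in that of ttn-1.

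For the muscle proteins of the thick filament, M-line and thin filament, coding-exon summits were counted and set against the number expected if the coding-exon summits of the chromosome were spread evenly over its coding bases. Unc-22 held 21 coding-exon summits in replicate 1 and 23 in replicate 2, where 12.3 and 12.6 were expected, and 19 in the pooled list, where 12.9 were expected. Its ratios of observed to expected were 1.71, 1.83 and 1.47. For unc-89 the counts were 24, 24 and 26 against 14.2, 14.2 and 14.6 expected, with ratios of 1.69, 1.69 and 1.78. Both replicates of both genes thus stood above the level of their chromosome, and for unc-89 the replicate counts were equal. Ketn-1 held 15, 15 and 17 summits against 8.23, 8.74 and 8.74 expected, ratios of 1.82, 1.72 and 1.95. The longest gene, ttn-1, did not share this: it held 29 summits in replicate 1, 25 in replicate 2 and 26 pooled, against 30.3, 32.1 and 32.1 expected. Its ratios of 0.958, 0.778 and 0.809 were on the low side of 1 in all 3 lists.

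Of the matrix genes, unc-52 had the highest ratio of the 8. It held 17 coding-exon summits in replicate 1, 19 in replicate 2 and 18 pooled, where 7.17, 7.34 and 7.57 were expected, so that the ratios were 2.37, 2.59 and 2.38. Among the 46 genes with at least 10000 coding bases, members included, unc-52 ranked 1 in each replicate and 2 in the pooled list. By contrast, dig-1 held 21, 16 and 17 summits against 20.1, 20.0 and 20.7 expected, ratios of 1.04, 0.802 and 0.823, and the replicates fell on opposite sides of 1. The dystrophin gene dys-1 held 8, 9 and 8 against 6.48, 6.48 and 6.67, ratios of 1.24, 1.39 and 1.20. Anc-1 was the low end: 9 summits in replicate 1, 3 in replicate 2 and 5 pooled, against 14.9, 14.9 and 15.4 expected. Its ratios were 0.603, 0.201 and 0.325, and it ranked 42, 44 and 42 of the 46 genes.

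**Figure D1:**
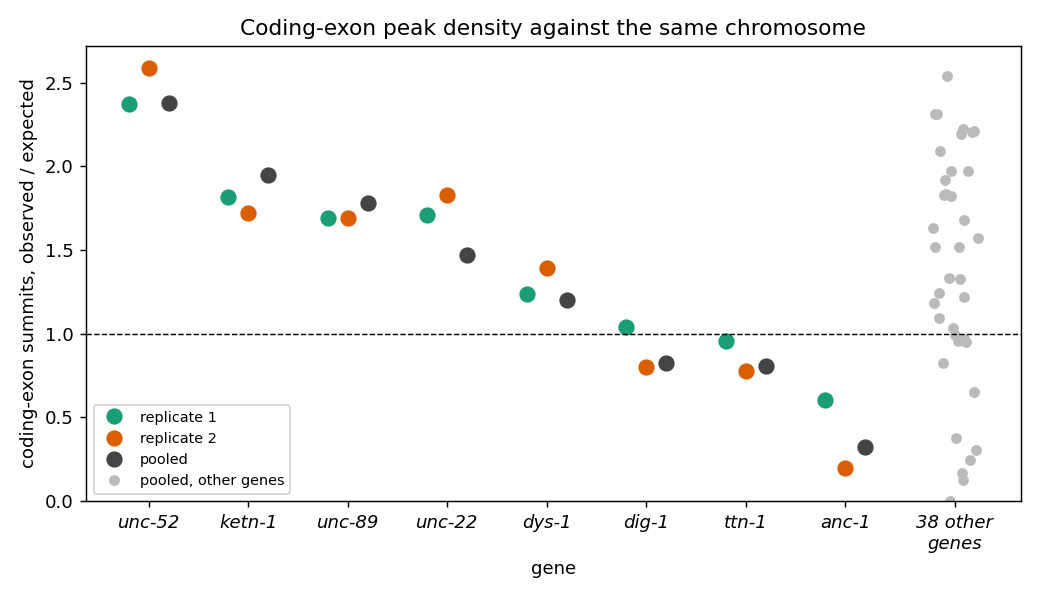
Coding-exon summits observed over expected for each of the 8 genes, with green, orange and dark points for replicate 1, replicate 2 and the pooled list, and in grey the pooled ratio of the 38 other genes with at least 10000 coding bases, spread sideways so that points can be seen. The dashed line is the level of the chromosome, unc-52 lies between 2.37 and 2.59, and anc-1 between 0.201 and 0.603.

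No gene, member or not, passed the test. With a two-sided exact binomial test per gene and replicate, adjusted by the method of Benjamini and Hochberg over the 9797 genes with at least 1000 coding bases, 0 genes (0%) had more summits than expected in both replicates at an adjusted p under 0.05, and 0 (0%) had fewer. The smallest exact adjusted p was 1.00 in replicate 1 and 0.917 in replicate 2, the latter that of unc-52, whose exact unadjusted p-values were 0.00120 and 2.28e-04. At an unadjusted exact p under 0.05, 274 genes passed in replicate 1 and 289 in replicate 2, in either direction. In both replicates and upward, 51 of 9797 genes did so (0.521%), and 4 of the 8 were among them: unc-52, unc-89, unc-22 and ketn-1. With an expectation weighted by GC content 2 of them did so, unc-52 and unc-89, and with repeated bases also left out 1, unc-52. Long genes have larger expected counts and reach a given p more easily, and of the 46 genes with at least 10000 coding bases 11 did so (23.9%). Downward in both replicates the count was 5 of 9797 (0.0510%) and 2 of 46 (4.35%), with 0 of the 8. Most genes have too few expected summits to reach a low p downward even with 0 observed. The share over all 9797 genes is therefore no fair background in that direction, and the same limit holds for the adjusted count of genes with fewer. Anc-1 had an exact unadjusted p of 0.151 in replicate 1, 3.90e-04 in replicate 2 and 0.00444 in the pooled list. The test treats summits as independent draws and compares places within a list, not conditions.

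Summed over the 8 genes, coding-exon summits numbered 144 in replicate 1, 134 in replicate 2 and 136 in the pooled list, against 113.7, 116.4 and 118.7 expected, ratios of 1.27, 1.15 and 1.15. The median log2 ratio of the members, with 0.5 added to both counts, was 0.51, 0.59 and 0.39. Over all genes tested it was -0.15, -0.20 and -0.19, and over those of at least 5000 coding bases it was 0.40, 0.43 and 0.33. For the 46 genes of at least 10000 coding bases it was 0.49, 0.56 and 0.47, so that the members' median was near that of genes of like length in each list. Of the summits inside the spans of these genes, 73.5%, 70.5% and 70.8% lay in coding exons. Of all nuclear summits, those between genes included, 45%, 45.9% and 46.9% did. These shares have unlike bases, so their difference does not show a preference of the 8 genes. Coding sequence takes up 35.1% of the span in unc-52 and 81.0% in dig-1.

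The members with a pooled ratio below 1 were ttn-1, dig-1 and anc-1, and these had the most repeated sequence inside their coding exons. Ttn-1 and dig-1 were little below it, with pooled unadjusted exact binomial p of 0.328 and 0.506, and dig-1 had a ratio of 1.04 in replicate 1. A coding base was called repeated where the 36-base word starting there occurs more than once in the genome on either strand. The repeated share was 61.6% in anc-1, 26.8% in dig-1, 20.0% in ttn-1 and at most 0.0984% in the other 5 genes. Over the 8 genes 37447 of 205972 coding bases were repeated (18.2%), yet 0 of 136 pooled summits fell on them, which allows a share of up to 2.21%. In replicate 1, 2 of 144 summits did, both in dig-1, and in replicate 2, 0 of 134, which allows up to 2.24%. Across all coding exons of the same 5 chromosomes, repeated bases were 4.14% of the coding sequence and held 0.360% of the pooled summits. No source used here gives the read length, the aligner or the treatment of reads that match several places, and the part these play in the counts was not tested.

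The longest stretch without a pooled summit was 19.1 kb in anc-1, from 22.0 to 41.1 kb after the 5′ end of the gene. Of the coding bases in it 87.8% were repeated, and it held 97.6% of all repeated bases of the gene. Replicate 1 had 1 summit there and replicate 2 had 0. In ttn-1 the longest such stretch was 17.3 kb, from 16.2 to 33.5 kb. Its coding bases were 66.5% repeated and held 90.7% of the repeats of the gene. It held 3 summits of replicate 1 and 1 of replicate 2. Replicate 1 summits 6169175 and 6186447 were of peaks that overlap the pooled peaks at its edges, and 6184440 lay in an intron farther inside. The stretch contains the whole of the longest coding exon of the gene, 12217 bases at V 6171507 to 6183723. Of this exon 82.3% was repeated, and each of the 3 lists had 0 summits in it. The dig-1 stretch was 10.7 kb, from 23.4 to 34.1 kb, and its coding bases were 65.3% repeated, with 2 summits of replicate 1 and 0 of replicate 2. It held only 51.9% of the repeated bases of the gene, and the rest lay outside it. A stretch of 10.4 kb in unc-89, in contrast, had 0% repeated coding bases and lay mostly in introns, with 1130 coding bases.

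**Figure D2:**
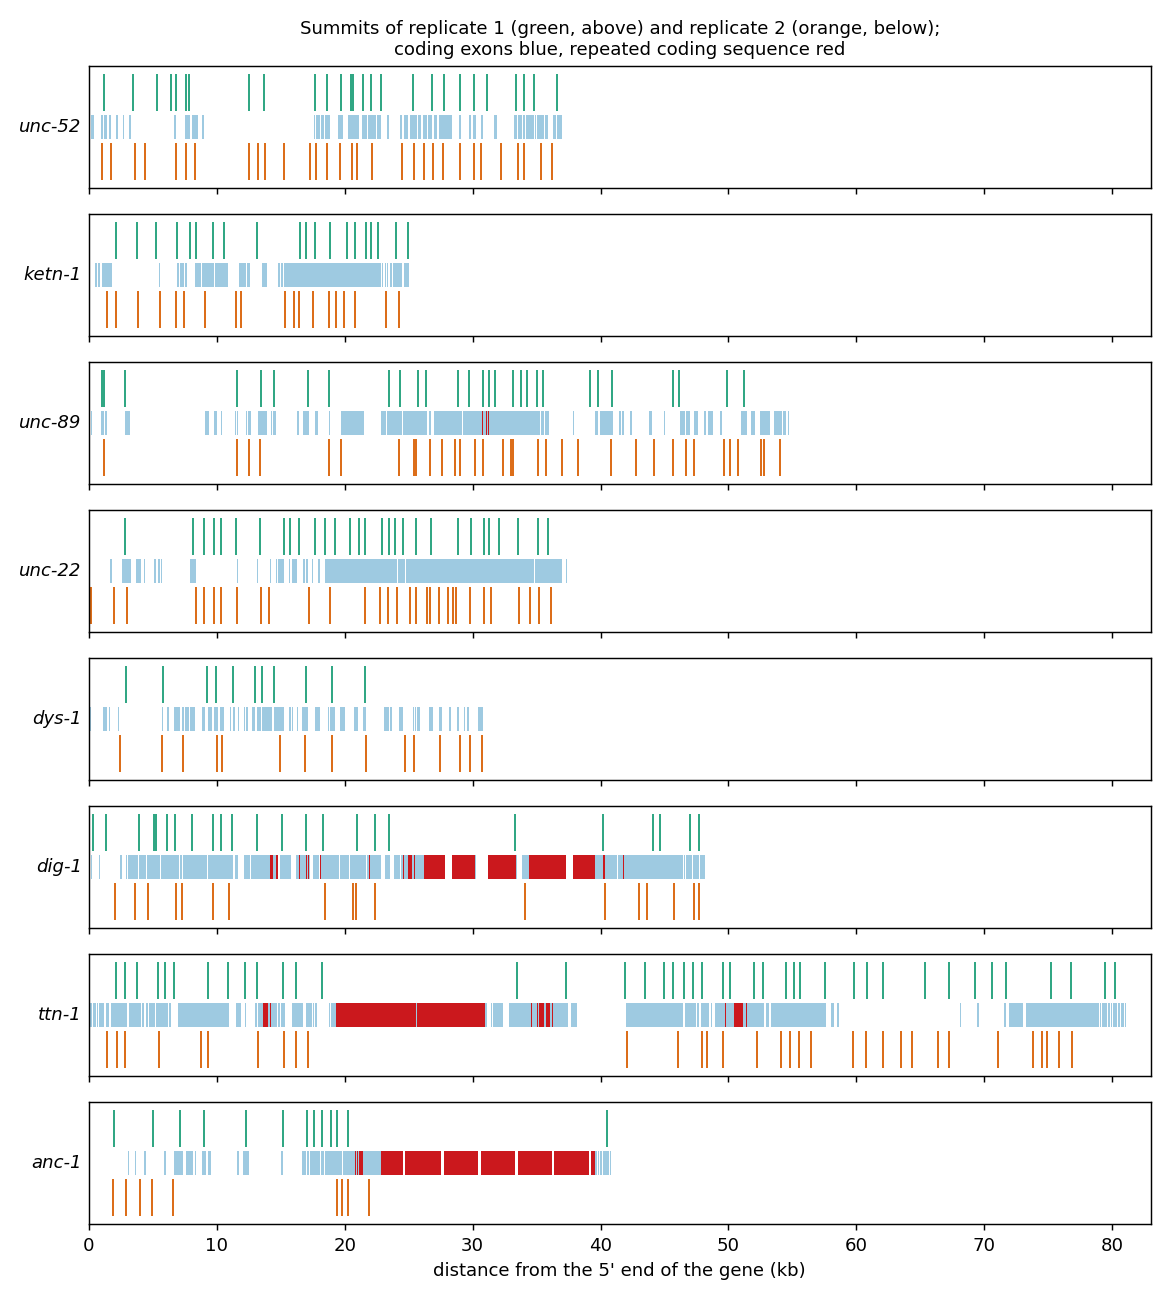
Each gene drawn from its 5′ end, with distance in kb on the horizontal axis, coding exons in blue, repeated coding sequence in red (repeats less than 100 bases apart joined), summits of replicate 1 as green lines above and summits of replicate 2 as orange lines below. The stretches of 19.1 and 17.3 kb without a pooled summit hold 97.6% of the repeated bases of anc-1 and 90.7% of those of ttn-1, and smaller red blocks lie outside them.

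The words that repeat most often in ttn-1 and dig-1 are shown to make these blocks concrete, each written 5′ to 3′ on the strand of the gene, from the RefSeq genome of build WBcel235.
ttn-1, chromosome V, minus strand: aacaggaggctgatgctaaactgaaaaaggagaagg
dig-1, chromosome III, plus strand: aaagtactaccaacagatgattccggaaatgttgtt
The ttn-1 word has 30 copies in the coding sequence of the gene, between 6171692 and 6175375, at a median spacing of 96 bases. The dig-1 word has 6 copies, between 6771451 and 6781736, at a median spacing of 1182 bases.

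Counting only non-repeated coding bases, in the genes and on the chromosomes alike, lowered the expected counts of these 3 genes. Ttn-1 then had 29 observed and 25.4 expected in replicate 1, 25 and 26.9 in replicate 2, and 26 and 26.9 pooled. Dig-1 had 19 against 15, 16 against 14.9 and 17 against 15.4, above 1 in all 3 lists. Anc-1 had 9 against 5.94 in replicate 1, 3 against 5.93 in replicate 2 and 5 against 6.11 pooled, so that its replicates stood on opposite sides of 1. The ratio of unc-52 was 2.31, 2.51 and 2.31, little moved. It moved more when all coding bases were kept and the expectation was weighted by GC content, to 1.94, 2.06 and 1.93. Of the 46 longest genes 10 were under 90% unique, and ZC247.1, with the lowest unique share at 23.8%, was 1 of the 2 with fewer summits at an unadjusted exact p under 0.05 in both replicates, while the other, ret-1, was 100% unique. Among the 36 others the median pooled log2 ratio was 0.65.

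**Figure D3:**
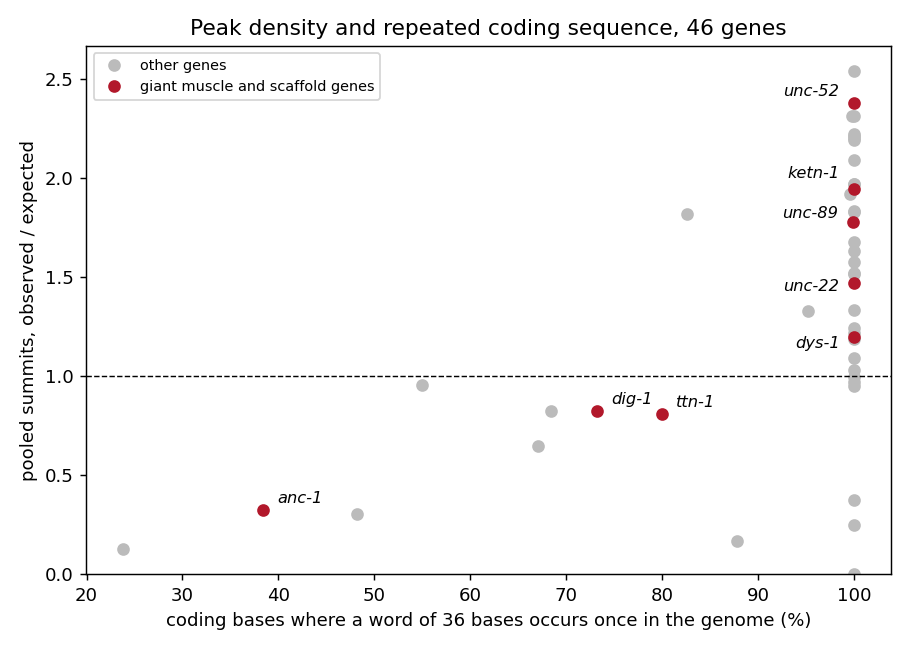
Pooled coding-exon summits observed over expected (vertical axis) against the percentage of coding bases whose 36-base word occurs once in the genome (horizontal axis), for the 46 genes with at least 10000 coding bases, the 8 described genes in red. The genes anc-1, dig-1 and ttn-1 lie to the left and below the dashed line at 1, and the other 5 at the right and above it.

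Introns were compared in the same way after leaving out the exons of every gene. Unc-22 was the densest in the pooled list, with 10 intron summits where 3.12 were expected, and it held 8 against 3.27 in replicate 1 and 7 against 3.26 in replicate 2. Unc-52 held 8, 9 and 9 intron summits in replicate 1, replicate 2 and the pooled list, where 4.50, 4.47 and 4.32 were expected. For these genes introns and coding exons were thus both above their chromosome in each list. Dys-1 and unc-89 differed between replicates, with 3 against 3.58 and 5 against 5.18 in replicate 1, and 6 against 3.22 and 8 against 4.66 in replicate 2. Anc-1, low in coding exons, held 4, 6 and 4 intron summits against 2.79, 2.52 and 2.51. More summits than expected stood in the introns of 6, 7 and 6 of the 8 genes in replicate 1, replicate 2 and the pooled list. The same held for 18, 19 and 17 of the 30 genes with at least 10000 coding and 5000 intron bases, and for 35.5%, 36.3% and 37.1% of all 1529 genes with at least 5000 intron bases. These counts are small and were not tested alone.

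When summits were counted over the whole gene span, exons and introns alike, unc-22 had an adjusted exact p of 0.0210 in replicate 1 and 0.00405 in replicate 2, with 30 and 31 summits against 11.4 and 11.5 expected. It was the 1 member that passed in this way, where passing by definition requires both replicates in the same direction. Of the 9797 genes with at least 1000 coding bases, 5 passed upward. How many of these 5 were among the longest genes was not counted. Unc-52 had 27 and 31 summits against 11.6 in either list, at adjusted exact p-values of 0.0638 and 0.00405, and unc-89 had 29 and 34 against 16.1 and 15.9, at 0.422 and 0.0491. The expectation in that setting spreads all summits of a chromosome over all its bases. Coding sequence, where summits are denser genome-wide, takes up more of these genes than of the chromosome. What part this plays was not tested. The introns of unc-22 held 2.45 and 2.15 times the expected summits in replicates 1 and 2.

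The longest exons of unc-22, ketn-1 and unc-89 hold little or no repeated sequence, and their summits were compared with those of the other coding exons with no test. The coding exon of 9614 bases in unc-22, at IV 11976183 to 11985796, held 8, 12 and 10 summits in replicate 1, replicate 2 and the pooled list, or 0.832, 1.25 and 1.04 per kb. Its other coding exons held 1.05, 0.886 and 0.725 per kb. The ketn-1 exon of 7569 bases, at V 2785054 to 2792622, held 9, 8 and 9 summits, or 1.19, 1.06 and 1.19 per kb, against 0.800, 0.933 and 1.07 per kb elsewhere in its coding sequence. In unc-89 the exon of 6065 bases, at I 4064920 to 4070984, held 8, 6 and 7 summits, or 1.32, 0.989 and 1.15 per kb, against 0.873, 0.983 and 1.04. The long exon was thus denser in each list in ketn-1 and unc-89, by little in replicate 2 of unc-89, and the order changed between replicates in unc-22. The longest exons of dig-1 (3890 bases), unc-52 (867) and dys-1 (751) were 1.54%, 0% and 0% repeated, with at most 2 summits per list. Pooled, they held 0.514, 1.15 and 0 per kb against 0.424, 1.40 and 0.771 elsewhere, and in each the order changed between lists. Chromosomes IV and V had 0.588 and 0.580 pooled coding-exon summits per kb.

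Of the 8 genes, dys-1 alone held a peak of the authors' final list. Genes with a summit of that list were 67 of 19973 (0.335%) and 2 of the 46 longest (4.35%), so 1 of 8 members rests on a single peak. This peak, at I 11540798 to 11541087 in a coding exon of 455 bases, ranked 66 of the pooled list with a signal of 39.9, just inside the lowest signal of the final list, 38.6. It ranked 192 in replicate 1 (signal 16.7) and 479 in replicate 2 (signal 22.0). Its pooled summit lay 16.91 kb after the 5′ end of the gene. The summits of the pooled list and of replicate 2 fell near the start of a shorter annotated transcript, at most 1000 bp before it or 200 bp after it, and that of replicate 1 fell outside these limits. The summit with 50 bp on either side had a GC content of 50.5% and no CCAAT.

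The next strongest pooled peaks were in unc-52, unc-89, ttn-1 and unc-22. The unc-52 peak at II 14665700 to 14665989 ranked 176 pooled (signal 35.8), 709 in replicate 1 and 975 in replicate 2. The unc-89 peak at I 4076364 to 4076653 ranked 182 pooled (signal 35.5), 387 in replicate 1 and 615 in replicate 2. Both were in coding exons and within the top 1000 of each replicate. A second unc-89 peak, in an intron at I 4081242 to 4081531, ranked 359 pooled, 974 and 774, and these 3 and the dys-1 peak were the member peaks with such ranks in all 3 lists. The ttn-1 peak at V 6199637 to 6199926 ranked 456 pooled (signal 31.9) but 8297 in replicate 1 and 715 in replicate 2. The unc-22 peak at IV 11985288 to 11985577 ranked 525 pooled (signal 31.4), 574 in replicate 1 and 4720 in replicate 2.

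The strongest peaks of the other 3 genes were weaker or uneven between replicates. In anc-1 it was at I 4337247 to 4337536, rank 897 pooled, 926 in replicate 1 and 9911 in replicate 2, with CCAAT 9 bp from the summit. In ketn-1 it was at V 2791230 to 2791519, rank 1328 pooled, 448 in replicate 1 and 14146 in replicate 2. In dig-1 it was at III 6752973 to 6753262, rank 4016 pooled, 22017 in replicate 1 and 3770 in replicate 2. High ranks in 1 list were not always shared: the anc-1 coding-exon peak at I 4330137 to 4330446 ranked 90 in replicate 1 and the unc-89 peak at I 4086795 to 4087104 ranked 99, and no peak of replicate 2 overlapped either. In the other direction, unc-89 had a peak at rank 312 of replicate 2, at I 4065725 to 4066014, that no peak of replicate 1 overlapped. The unc-52 peak at rank 278 of replicate 2, at II 14654213 to 14654502, met a replicate 1 peak at rank 24062.

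**Figure D4:**
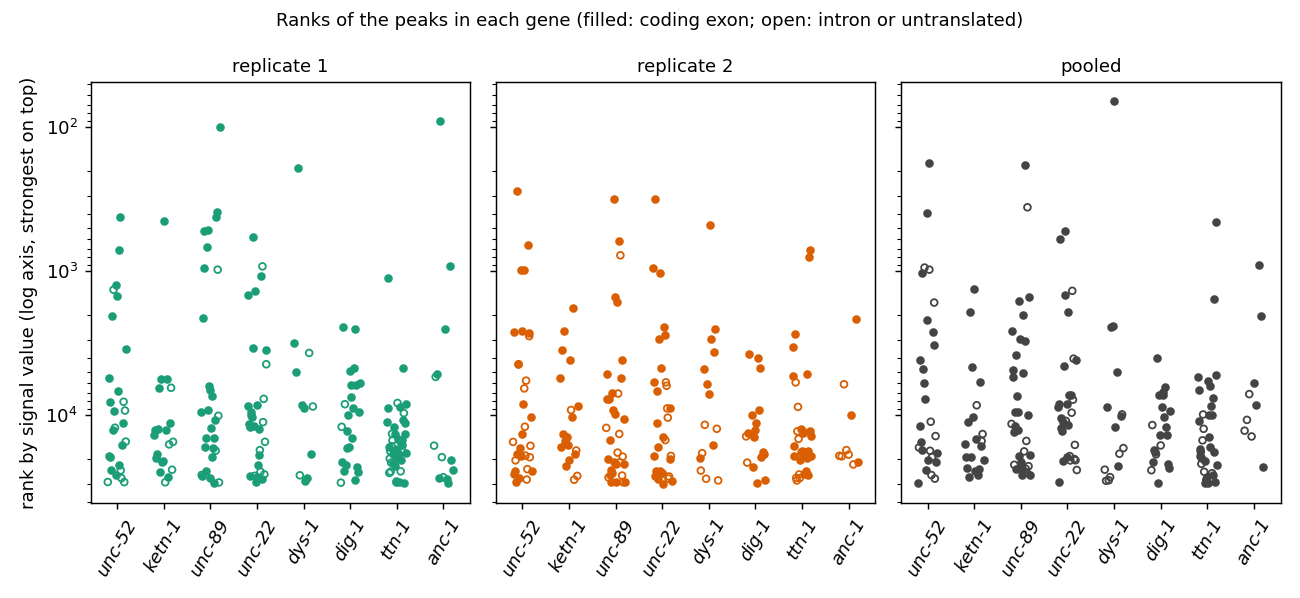
Rank by the authors' signal value, on a log axis with the strongest at the top, of every peak in each of the 8 genes, by list. Filled points are coding-exon summits and open points are summits in introns or untranslated exons. The dys-1 peak at rank 66 is the highest in the pooled list, and the highest anc-1 point, at rank 90 of replicate 1, has no counterpart in replicate 2.

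As a group the coding-exon peaks were of middle rank. Their median rank percentile among nuclear peaks, where lower is stronger, was 40.3 in replicate 1, 44.4 in replicate 2 and 34.0 in the pooled list. All coding-exon peaks of the same chromosomes had 43.4, 42.8 and 42.0. Unc-52 (27.1, 34.3 and 22.6), dys-1 (29.0, 15.8 and 22.8) and unc-89 (31.1, 34.2 and 31.6) were stronger than this in each list. Ttn-1, at 53.9, 58.8 and 51.2, was weaker in each.

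Of the 144 coding-exon peaks of replicate 1, 75 (52.1%, exact 95% interval 43.6 to 60.5) were overlapped by 1 bp or more by a peak of replicate 2, which covered 17.8% of the members' coding bases. Over all coding exons of the same chromosomes the share was 54.4%, with 15% covered. In the other direction 75 of 134 (56.0%, 47.1 to 64.5) were overlapped, against 53.2%. Unc-52 had the highest share of the 8 genes in either direction, with 15 of 17 peaks of replicate 1 (88.2%, 63.6 to 98.5) and 13 of 19 of replicate 2 (68.4%, 43.4 to 87.4). Peaks of the other replicate also covered more of its coding bases than in any other of the 8 genes, 39.8% and 37.7%. In anc-1 it was 2 of 9 (22.2%) and 2 of 3, with 4.44% and 11.9% covered, in ttn-1 13 of 29 (44.8%) and 14 of 25, with 12.4% and 16.1% covered, and in dig-1 8 of 21 (38.1%, 18.1 to 61.6) and 8 of 16. These intervals cover counting error only. Of the 192 pooled peaks in the 8 genes, introns and untranslated exons included, 96 met a peak of both replicates, 34 of replicate 1 only, 55 of replicate 2 only and 7 of neither. Summits inside the span of another protein-coding gene numbered 9, with 5 in its coding sequence, and ttn-1, which overlaps the potassium channel gene exp-2, had 6 of the 9.

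Base composition and the CCAAT box were close to those of the coding sequence around. The median GC content within 50 bp of the summits was 45% in replicate 1, 43.6% in replicate 2 and 45% in the pooled list, where windows of that width centred on every coding base of the 8 genes had 44.6%. Over all coding exons of these chromosomes, summits had 42.6% in each list and coding bases 40.6%. Unc-52 was the richest, with 52.5%, 50.5% and 52% at summits and 49.5% over its coding bases. In anc-1 the summits, at 42.6%, 41.6% and 40.6%, were lower than its coding bases at 45.5%. Summit GC was above that of the same gene's coding bases in 5, 3 and 4 of the 8 genes, and in 61.4%, 57.2% and 61.9% of the genes with at least 5000 coding bases and 3 or more coding-exon peaks.

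The 5 letters CCAAT were searched in either orientation up to 50 bp away from the summit, and were found at 32 of 144 coding-exon summits in replicate 1 (22.2%, exact 95% interval 15.7 to 29.9), 34 of 134 in replicate 2 (25.4%, 18.3 to 33.6) and 31 of 136 in the pooled list (22.8%, 16 to 30.8). All coding-exon summits of the same chromosomes had it at 25.2%, 24.7% and 24.5%. Windows of the same length on every coding base had it at 26.4% in the 8 genes and 25.5% over those chromosomes. Dig-1 had the highest share among the genes with more than 9 peaks in each list, with 11 of 21, 6 of 16 and 7 of 17, and 50% of its coding windows held the letters. For the 8 genes together, each of these backgrounds lies within the interval of its list, and a match is a description of letters, not a site.

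Near the annotated transcript starts of the members, in windows from 1000 bp upstream to 200 bp downstream, the pooled list had 6 summits in dys-1, 4 in ketn-1, 3 each in unc-89 and unc-52, 2 each in ttn-1 and unc-22, 1 in anc-1 and 0 in dig-1. The numbers of distinct starts were 9, 4, 5, 7, 5, 5, 3 and 1, and many of these windows lie inside the genes, so they share peaks with the counts above. The strongest in the unc-89 windows was the intron peak at rank 359, and in ttn-1 a peak at rank 1493 of the pooled list, 1066 of replicate 1 and 8527 of replicate 2. For dig-1 the single window held 1 summit in replicate 1, at rank 20628, and 0 in replicate 2.

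Other genes of the same pathways were counted from lists by function, and 0 genes in any of them passed the adjusted test. Of 34 tested genes of the sarcomere and its attachments, the median log2 ratio was -0.06 in replicate 1, 0.27 in replicate 2 and -0.05 pooled. For 12 genes of the dystrophin complex it was -0.26, 0.31 and 0.32, and for 19 genes of the cell scaffold and nuclear anchoring -1.35, 0.18 and 0.18. The medians of these 3 lists changed sign between replicates, and the lists had 0 genes with an unadjusted exact p under 0.05 in both. Summed over each list, their pooled summits were above expectation, at 79 against 65.3, 20 against 12.4 and 74 against 61.8. The 26 genes of basement membrane and matrix, the company of unc-52, had medians of 0.54, 0.53 and 0.64, and 1 of them, let-805, which encodes a transmembrane protein of the attachments between epidermis and muscle, had more summits at that unadjusted level. Genes from outside muscle had medians above 0 in both replicates and pooled, as the matrix genes did and the sarcomere genes did not. The 23 long genes of neurons had medians of 0.37, 0.63 and 0.41 with 1 such gene, the cadherin cdh-4, and the 25 long broadly used genes 0.71, 0.71 and 0.66 with 5, which were dhc-1, trr-1, atm-1, npp-10 and lrp-1. These 7 genes are named after their values were seen. The matrix, neuron and broadly used lists summed to 133, 114 and 168 pooled summits against 84.9, 79.3 and 96.5 expected. The lists differ in length, with a median of 2524 coding bases for the sarcomere, 5091 for the matrix and 6012 for the broadly used genes.

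The genes of at least 5000 coding bases outside the 8 whose pair of replicate log2 ratios lay nearest to the members' median pair of 0.51 and 0.59 were ints-1, fmi-1, let-716, daf-42 and hpo-27. They were picked from 274 genes of that length, members included, by distance over 2 replicates. The nearest, ints-1, a subunit gene of the Integrator complex, held 5 coding-exon summits in each replicate against 3.29 expected in each, and fmi-1, the Flamingo cadherin gene, held 6 and 7 against 4.26 and 4.52.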

How the data were processed

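NFYA-1 ChIP-seq was measured in 2 biological replicates of 1 group. Per the text deposited with each sample, the authors placed reads on ce11, used 1 control alignment for both replicates, kept 30000 peaks with background per list and derived the final list by irreproducible discovery rate. The deposited signal value of each peak (column 7) has a scale not given in the sources used here, as are aligner, peak caller and read depth. Lists for ce10 were not used.

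Summits were placed in the exons of Ensembl release 115 (all transcripts merged) with Python 3.11.15, numpy 2.4.6, pandas 2.3.3 and scipy 1.17.1. Coding-exon summits per gene were tested by a two-sided exact binomial test against the gene's share of the coding bases of its chromosome, with Benjamini-Hochberg adjustment over genes of at least 1000 coding bases, and a gene was called where both replicates passed at 0.05 in 1 direction. The script was tested on simulated data with planted changes larger than the coding-exon ratios of the members. That does not show whether changes of the size seen here would be called. Log2 ratios used a pseudocount of 0.5. All 8 genes, their strongest pooled peaks and the 5 nearest genes were named by rule. No list gene was called, and the list genes named were picked by unadjusted exact binomial p after their values were seen. The members and lists were chosen with earlier results of these data known. Alternatives were leaving out each replicate, the pooled list, the 10000 strongest peaks, merged peaks, other expectations (whole genome, GC-weighted, gene span, longest transcript, unique words), no minimum length, and other windows. Sequences of chromosome I are not reported here.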

Additional observations from a re-analysis of the deposited data

How the results depend on the processing

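No paired analysis was possible because there is 1 group of 2 replicates. Leaving out each replicate in turn left 0 members with more or fewer summits at an adjusted p under 0.05 and gave a median log2 ratio of the members from 0.51 to 0.59 (0.39 in the pooled list, which draws on both), a median summit GC from 43.6% to 45%, a median rank percentile from 40.3 to 44.4 and a CCAAT share from 22.2% to 25.4%. The median log2 ratio was 0.47 with the 10000 strongest peaks, 0.29 with merged peaks, 0.45 with a whole-genome expectation, 0.19 with a GC-weighted one and 0.91 over gene spans. With only unique words of 36 or 50 bases it was 0.33, and 0.14 with 36-base words and GC weighting. These unique-word settings were chosen after seeing the data. Over gene spans 1 member (unc-22) passed the adjusted test, and of the 9797 genes 5 passed upward and 1 downward. At an unadjusted exact p under 0.05 in both replicates, the 4 members with more summits became 2 with GC weighting (unc-89 and unc-52) and 1 with unique words and GC weighting (unc-52). They became 3 with the pooled list (without unc-22), the 10000 strongest peaks (without ketn-1, whose pooled ratio went from 1.95 to 1.26), merged peaks (without unc-89) and either set of unique words (without ketn-1). The pooled ratio of anc-1 went from 0.325 to 0.578 with the 10000 strongest. Anc-1 made 1 member with fewer in replicate 2 alone and in the pooled list alone. Of 96 recomputed log2 ratios of single members 89 kept their sign and 7 reversed: ttn-1 over gene spans (0.31), dig-1 without replicate 2 (0.06, against -0.31 without replicate 1), over gene spans (0.72) and with unique words (0.14, 0.11 and, with GC weighting, 0.01), and dys-1 with unique words and GC weighting (-0.04). Apart from what the construction of these settings shows, the cause was not tested. Replicate support of 52.1% became 33.3% for summits within 100 bp and 35.5% among the 10000 strongest, CCAAT within 100 bp was 41.2%, and the rank percentile among coding-exon peaks of the same chromosome was 42.8. Coding-exon counts of at most 29 per gene and list limit what can be told about single genes.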
